A study of Mus musculus with 18 samples.

Results

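The 36 genes described here encode collagens, other proteins of the extracellular matrix, enzymes that crosslink or cut that matrix, and surface or secreted proteins of fibroblasts. They were taken by symbol from a list that was drawn up with earlier results of these data known, although its rule uses no measured value, and all 36 were found among the 45777 gene lines of a mouse colon count table. All 36 were also among the 18848 genes kept by a filter on low counts. The study compared colons of 3 genotypes with and without a short exposure to dextran sulfate sodium (DSS), a sulfated polysaccharide that injures the colonic epithelium. The genotypes were wild type (WT), Lao1-/- (LAO1KO) and Lao1-/- Il4i1-/- (DKO), so that the DKO mice also lack Lao1, and both genes encode L-amino acid oxidases. In each genotype 3 libraries came from mice on sterile water and 3 from mice on 2.5% DSS for 24 h, and the series text calls the 3 libraries of a group biological replicates. All groups were germ-free C57BL/6J males aged 8 weeks, and the labels name no floxed allele, Cre driver or pooling. No time of day of collection is given, so it cannot be told apart from the treatment.

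In the wall of the colon, fibroblasts, pericytes and smooth muscle cells secrete most of the matrix. Fibrillar collagens form the tensile fibres of the submucosa, type IV collagen, laminin and nidogen form the basement membrane under the epithelium and around vessels and muscle, and type VI collagen forms beaded filaments that link the basement membrane to the fibres. Matrix is removed by metalloproteinases and ADAMTS enzymes, which TIMP proteins inhibit, and PDGF receptors mark and drive the mesenchymal cells.

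Counts in each library summed to between 26003174 and 36553193, and the 36 genes took between 0.102% and 0.355% of them. The lowest count of any member in any library was 15, for Adamts4. Values below are CPM, counts of each library scaled to a common library size with trimmed mean of M values (TMM) factors, which ranged from 0.625 to 1.14. The 3 WT DSS libraries stood apart in their share of mitochondrial mRNA, which was 26.1% to 44.9% of counts against 6.89% to 9.08% in the WT water libraries. In LAO1KO the share was also higher with DSS without overlap, 15.7% to 23.2% against 8.67% to 14.4% in water. In DKO it was 14.3% to 23.6% with DSS and 10.5% to 20.7% in water. The epithelial marker Epcam reached 1174 to 3065 CPM, the smooth muscle marker Myh11 406 to 1580 CPM and the fibroblast marker Dpt 47.7 to 138 CPM, so markers of mucosa, muscle and fibroblasts were present in every library. In bulk tissue, fewer cells of a type and less RNA per cell cannot be told apart.

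Per kilobase of the longest annotated transcript of each gene, averaged over the 18 libraries, the most abundant members were Sparc (85.7 CPM per kilobase), which binds collagen and guides its deposition, Col3a1 (38.3), the chain of type III collagen, Bgn (23.8), the small proteoglycan biglycan, and Timp2 (19.6), a metalloproteinase inhibitor. Col1a2 (19.4) and Dcn (19.0) lay close to Timp2, and shorter transcripts of a gene were not considered. The least abundant were Adamts4 (0.657), a protease that cuts aggregating proteoglycans, Lox (0.902), the collagen and elastin crosslinking oxidase, and Col14a1 (0.978), a fibril-associated collagen. Sparc was at 218, 222 and 199 CPM in WT water libraries A, B and C, at 121, 213 and 219 in WT DSS, at 146, 225 and 135 in LAO1KO water, at 268, 226 and 262 in LAO1KO DSS, at 110, 228 and 158 in DKO water and at 157, 217 and 223 in DKO DSS. Only the LAO1KO groups did not overlap for Sparc, with the DSS libraries the higher ones. Bgn was at 92.6, 74.6 and 58.9 CPM in WT water, 53.5, 94.8 and 79.2 in WT DSS, 66.8, 49.4 and 40.2 in LAO1KO water, 73.5, 49.96 and 63.6 in LAO1KO DSS, 40.7, 63.2 and 49.3 in DKO water and 68.1, 59.0 and 66.4 in DKO DSS. Its water and DSS libraries overlapped in each genotype. Timp2 was at 62.6, 76.2 and 82.5 CPM in WT water, 47.1, 74.3 and 90.5 in WT DSS, 66.0, 67.3 and 59.8 in LAO1KO water, 90.9, 91.0 and 82.1 in LAO1KO DSS, 42.9, 67.9 and 57.6 in DKO water and 64.0, 101 and 83.1 in DKO DSS. All 3 LAO1KO DSS libraries were above the LAO1KO water libraries, and the other water and DSS groups overlapped. In LAO1KO 4 of the 36 members (11.1%) were higher with DSS without overlap, where 9.3% of all genes were. That is near the share of all genes and says nothing about the members.

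The members did not vary independently of the library. WT water library B held the highest value of 19 of the 36 genes, WT DSS library A the lowest of 16 and DKO water library A the lowest of 7. The summed level of all 36 was 2754 ± 557 CPM (SD, n = 3) in WT water, 1728 ± 533 in WT DSS, 1810 ± 400.2 in LAO1KO water, 2060 ± 266 in LAO1KO DSS, 1646.5 ± 452.5 in DKO water and 2001 ± 138 in DKO DSS. WT water had the highest group mean for 26 of the 36 genes, WT DSS the lowest for 18 and DKO water the lowest for 13. Adamts4 spanned the widest range, 12.3-fold between its lowest and highest library, and Pdgfrb the narrowest, 1.63-fold.

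**Figure D1:**
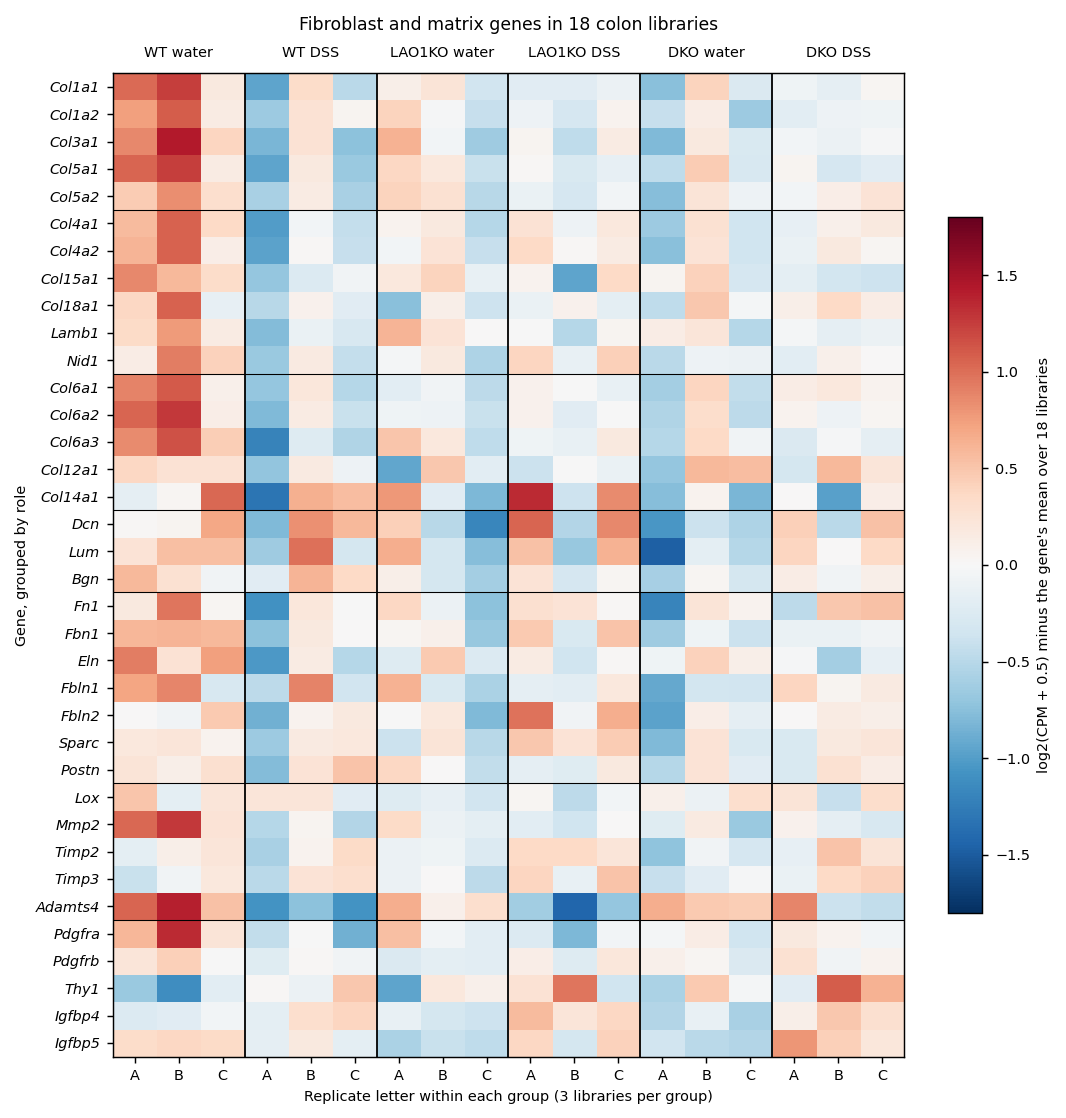
Rows are the 36 genes ordered by role and columns are the 18 libraries by group and replicate letter, and the colour is log2(CPM + 0.5) minus the gene's mean over all libraries. WT water libraries A and B are red across most collagens, WT DSS library A and DKO water library A are blue for most genes, and Thy1, Igfbp4 and the proteoglycan Dcn follow other patterns.

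The sequences just before the start sites of 5 genes are shown because they belong to the 2 members that rose with DSS averaged over the genotypes, Igfbp4 and Igfbp5, and to 3 that fell with DSS in WT, Col6a3, Pdgfra and Col3a1. In WT alone Igfbp5 was also lower in every DSS library. Each is the 250 bases before the start given by RefSeq on GRCm38.p6, written 5′ to 3′ on the gene's strand, and capitals mark matches on either strand to the TATA box TATAAA, the CCAAT box CCAAT, the GC box GGGCGG or the E-box CACGTG.
Igfbp4: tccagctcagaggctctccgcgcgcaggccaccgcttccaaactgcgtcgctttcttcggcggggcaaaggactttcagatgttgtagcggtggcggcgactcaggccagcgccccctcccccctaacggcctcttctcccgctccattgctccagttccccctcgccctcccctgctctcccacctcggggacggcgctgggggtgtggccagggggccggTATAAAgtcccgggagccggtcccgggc
Igfbp5: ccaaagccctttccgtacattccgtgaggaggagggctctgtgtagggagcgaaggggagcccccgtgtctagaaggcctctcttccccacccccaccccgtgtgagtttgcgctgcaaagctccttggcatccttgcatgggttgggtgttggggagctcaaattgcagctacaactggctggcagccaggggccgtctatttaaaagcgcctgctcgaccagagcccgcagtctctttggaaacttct
Col6a3: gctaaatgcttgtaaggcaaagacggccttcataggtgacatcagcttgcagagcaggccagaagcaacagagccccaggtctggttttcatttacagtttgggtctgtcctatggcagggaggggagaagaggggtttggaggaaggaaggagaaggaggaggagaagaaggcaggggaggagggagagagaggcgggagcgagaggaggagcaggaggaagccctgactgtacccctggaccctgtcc
Pdgfra: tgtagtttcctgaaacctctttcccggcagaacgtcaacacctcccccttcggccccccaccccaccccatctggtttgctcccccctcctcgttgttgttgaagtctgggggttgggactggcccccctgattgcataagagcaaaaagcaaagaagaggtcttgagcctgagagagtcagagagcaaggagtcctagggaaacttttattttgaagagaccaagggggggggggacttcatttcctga
Col3a1: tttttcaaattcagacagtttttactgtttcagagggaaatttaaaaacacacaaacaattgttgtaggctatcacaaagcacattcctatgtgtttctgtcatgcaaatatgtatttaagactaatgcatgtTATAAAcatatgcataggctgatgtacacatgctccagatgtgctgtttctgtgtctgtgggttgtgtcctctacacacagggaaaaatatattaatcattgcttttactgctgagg
These windows are chr11:99040994-99041243 on the plus strand for Igfbp4, chr1:72874866-72875115 on the minus strand for Igfbp5, chr1:90843972-90844221 on the minus strand for Col6a3, chr5:75152001-75152250 on the plus strand for Pdgfra and chr1:45311288-45311537 on the plus strand for Col3a1. All but 19 bases of the Igfbp5 window lie outside annotated exons of GENCODE M21. Igfbp4 has a TATAAA match starting at -28 and Col3a1 one at -117, counted back from the start, and the windows of Igfbp5, Col6a3 and Pdgfra have none of the 4 motifs. RefSeq windows were matched for 23 of the 36 members. TATAAA (or TTTATA) was present in 2 of the 23, against 13% of 27025 promoters. CCAAT (or ATTGG) was present in 7 (30.4%) against 34.5%, GGGCGG (or CCGCCC) in 12 (52.2%) against 32.9%, and CACGTG in 1 (4.35%) against 6.05%. A match is a run of letters and not a shown binding site.

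In WT mice, 24 h of DSS was accompanied by lower levels of collagens of several classes, of the metalloproteinase Mmp2, of Adamts4 and of the PDGF receptor Pdgfra. Of the 36 members 16 fell and 0 rose at an adjusted p under 0.05 (edgeR quasi-likelihood test, Benjamini-Hochberg over all genes tested), where 12.9% of all genes passed in either direction, 6.29% higher and 6.59% lower. The median log2 fold change of the members was -0.73, against 0.02 over all genes tested, and 31 of 36 values were negative. DSS libraries lay wholly below water libraries for 14 members, where 15.8% of all genes did so. By role, 4 of 5 fibrillar collagen genes, 5 of 6 basement membrane genes, 3 of 5 type VI and fibril-associated collagens, 2 of 5 crosslinking and turnover genes, 1 of 7 glycoprotein and elastic fibre genes, 1 of 5 receptor and surface genes and 0 of 3 proteoglycans fell.

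Among the fibrillar collagens, Col5a1, whose type V chain nucleates fibrils, was at 63.6, 73.5 and 34.0 CPM in WT water libraries A, B and C and at 15.7, 34.5 and 19.1 in WT DSS. Only DSS library B reached the lowest water library. The log2 fold change was -1.30 ± 0.33 (SE, n = 3 per group, edgeR adjusted p = 0.0189). Col3a1 was at 357, 527 and 256 CPM in water and at 110, 234 and 116 with DSS, without overlap, and fell by 1.31 on the log2 scale. Col1a1 and Col5a2, chains of types I and V, fell by 1.16 and 0.86, and Col1a2, the other type I chain, had a value of -0.78 with edgeR adjusted p = 0.0657.

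In the basement membrane group, Col4a1, a chain of the type IV network, was at 151, 212 and 130 CPM in WT water and at 50.2, 98.3 and 75.5 with DSS. Col4a2, its partner chain, was at 112, 153 and 79.2 CPM in water and at 37.3, 74.3 and 54.7 with DSS. All DSS libraries were below all water libraries for both. Col4a1 fell by 1.14 ± 0.27 on the log2 scale (SE, edgeR adjusted p = 0.0128) and Col4a2 by 1.05 ± 0.28 (edgeR adjusted p = 0.0246). The pair lies head to head on chromosome 8 (GRCm38; 11198423 to 11312826 and 11312805 to 11449287), with 22 bases in common, and how reads from overlapping genes were counted is not given in the sources used here. Col15a1, a vessel and muscle basement membrane collagen, Lamb1, a laminin chain, and Nid1, which links laminin to type IV collagen, fell by 0.96, 0.82 and 0.80. Col18a1, the precursor of endostatin, had a value of -0.71 with edgeR adjusted p = 0.11 and passed with the replicate letter as a block (-0.68, edgeR adjusted p = 0.0247). Of the 9 other settings it passed only in the 2 with the block, and it passed in 1 of the 6 fits that leave out a library.

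All 3 type VI collagen genes among the members fell. Col6a3, the longest of these chains, was at 92.6, 114 and 69.9 CPM in WT water and at 22.0, 43.6 and 35.1 with DSS. The highest DSS library stayed below the lowest water library, and the log2 fold change was -1.46 ± 0.27 (SE, edgeR adjusted p = 0.00466). Col6a2 was at 117, 135 and 60.8 CPM in water and at 32.02, 61.8 and 42.1 with DSS, and fell by 1.20 ± 0.28 (edgeR adjusted p = 0.0132). Col6a1 was at 131, 153 and 75.3 CPM in water and at 43.3, 81.1 and 49.5 with DSS, and fell by 1.04 ± 0.28 (edgeR adjusted p = 0.0233). For these 2 genes DSS library B overlapped water library C. The fibril-associated collagens Col12a1 and Col14a1 had values of -0.48 and -0.23 that did not pass.

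Adamts4 had the largest fold change of the members. It was at 5.54, 7.24 and 3.70 CPM in WT water and at 0.883, 1.25 and 0.882 with DSS, so that every DSS library was far below every water library. It fell by 2.43 ± 0.42 on the log2 scale, 5.4-fold (SE, edgeR adjusted p = 0.00296). Mmp2, the gelatinase A that cuts denatured and type IV collagen, was at 46.4, 54.8 and 26.8 CPM in water and at 15.5, 23.2 and 15.4 with DSS, also without overlap. It fell by 1.24 ± 0.26 (SE, edgeR adjusted p = 0.00754). The inhibitors Timp2 and Timp3 had values of -0.06 and 0.13, with 95% intervals of -0.51 to 0.38 and -0.34 to 0.61, and Lox one of -0.13.

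Pdgfra, the PDGF receptor that marks most gut fibroblasts, was at 58.0, 97.2 and 44.8 CPM in WT water and at 27.7, 37.8 and 20.6 with DSS. Its groups did not overlap and it fell by 1.21 ± 0.29 on the log2 scale (SE, edgeR adjusted p = 0.0136). Pdgfrb, the receptor of pericytes, had a value of -0.31 and did not pass (edgeR adjusted p = 0.169). Eln, the core protein of elastic fibres, was at 40.2, 25.2 and 35.5 CPM in water and at 10.02, 23.4 and 14.6 with DSS. It fell by 1.07 ± 0.28 (SE, edgeR adjusted p = 0.0228), with DSS library B just under water library B. Thy1, a surface glycoprotein of fibroblasts and neurons, was the 1 member whose DSS libraries were all above its water libraries, where 18% of all genes did so, at 14.9 to 22.5 CPM against 7.11 to 13.9, and its value of 0.79 did not pass (edgeR adjusted p = 0.226). The proteoglycans Dcn, Lum and Bgn had values of 0.07, -0.25 and 0.01. Fbn1, the fibrillin of microfibrils, had a value of -0.75 and did not pass (edgeR adjusted p = 0.0556).

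The WT count depended on single libraries. It was 7 without WT water library A, 4 without WT water library B, 6 without WT DSS library A and 3 without WT DSS library C, against 17 without WT water library C or WT DSS library B, and 4 when only the WT libraries entered the fit. Col6a3, Mmp2 and Adamts4 passed in all 6 of the fits that leave out a library and in all 9 other settings. The median over the members ranged from -0.99 to -0.52 in the 6 fits. Beside this, the 10 smooth muscle markers, none of them at 0 in any library, summed to 5575 to 8946 CPM in WT water and 3285 to 6780 with DSS, and all 10 had negative log2 values with 0 passing. The 8 adipocyte markers summed to 59.4 to 590.1 and 39.8 to 329.9 CPM, with 3 of them at 0 in at least 1 WT DSS library. The 20 fibroblast markers, 5 of which are among the 36 members, summed to 778 to 940 and 482 to 923 CPM. Past the threshold 1 of them was higher, Fap, and 2 were lower, the members Pdgfra and Col1a1. No fibroblast marker outside the members was lower past the threshold. Of the 20 values 14 were negative and 6 positive, with a median of -0.06, and the lowest, -1.78, was that of a marker outside the members. The 9 subepithelial telocyte markers summed to 120 to 166 CPM in WT water and 89.2 to 106 with DSS, with 4 of them lower past the threshold. The 7 enteric neuron markers summed to 97.0 to 130 and 182 to 235 CPM, all positive with 1 higher past the threshold, and the 5 enteric glia markers to 13.4 to 23.4 and 23.5 to 45.6 CPM, with 2 higher and 1 at 0 in at least 1 DSS library. The 9 endothelial markers (84.7 to 109 and 56.8 to 84.4 CPM) and the 6 B cell markers (2.9 to 8.1 and 10.2 to 19.2 CPM) also did not overlap, with 0 passing. Of the 6 goblet markers 2 were lower past the threshold and 0 higher, and their sums overlapped. The part of these cell types in the result was not tested. With mitochondrial mRNA and ribosomal RNA left out before scaling the count was 17. Members are long, with a median annotated transcript of 5285.5 bases against 3101 for all genes with a length, and log2 fold changes in WT fell with length over 17228 genes (Spearman rho = -0.28, across genes, which are not replicates). With length fitted as an offset the count was 11.

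**Figure D2:**
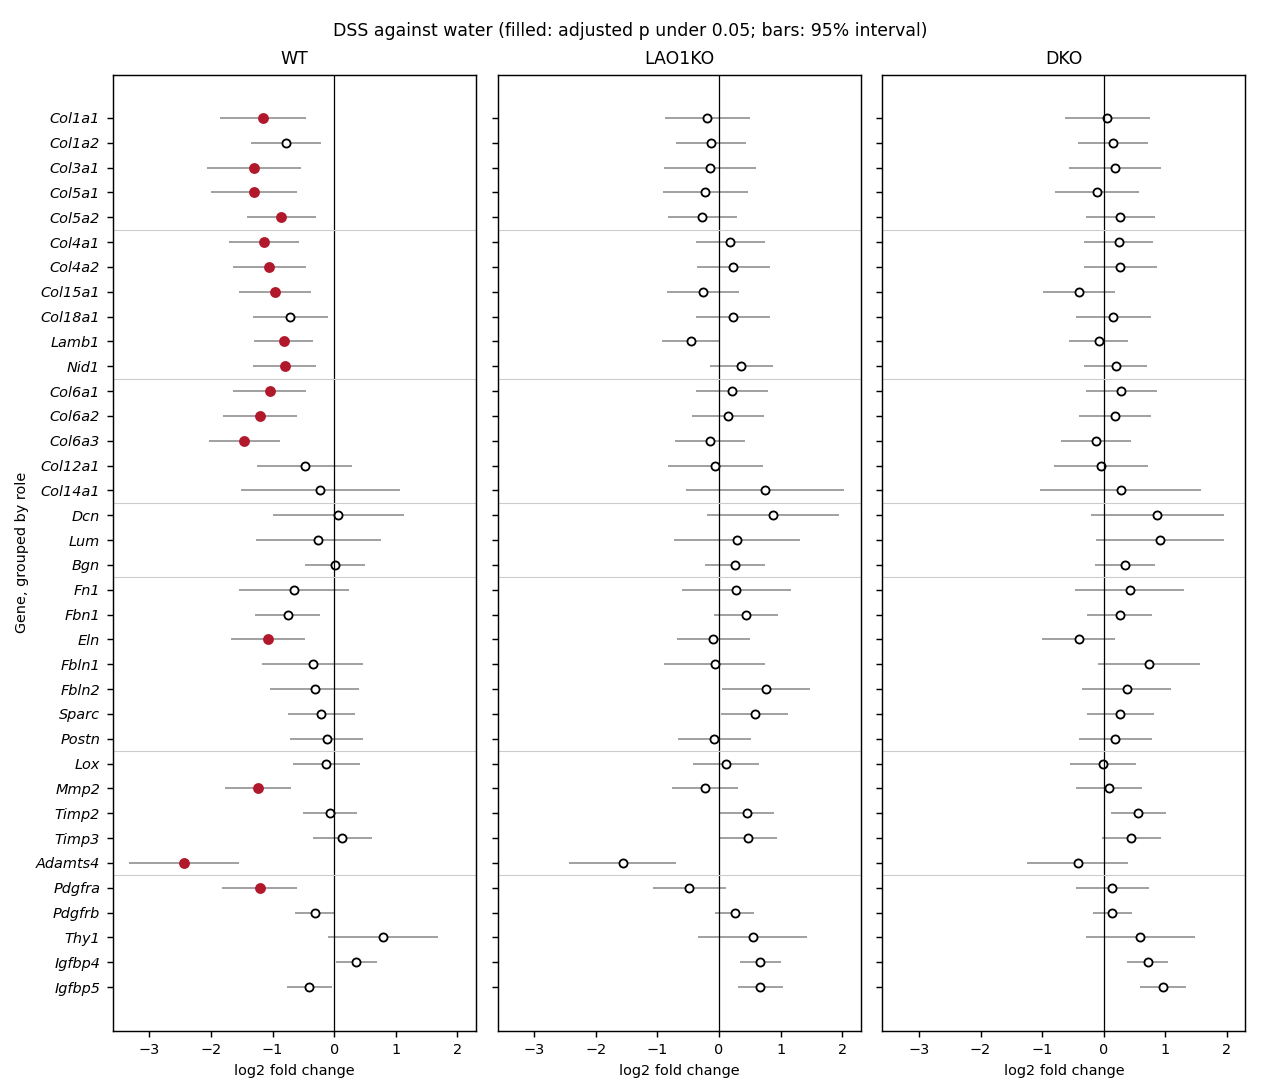
Each panel gives the log2 fold change of DSS against water with its 95% interval for the 36 genes in 1 genotype, filled where the edgeR adjusted p was under 0.05. In WT 16 filled points lie left of zero, from -2.43 for Adamts4 to -0.80 for Nid1, and in LAO1KO and DKO no point is filled.

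In LAO1KO mice no member passed by edgeR, where 0.196% of all genes did. At an unadjusted p under 0.05, 5 members were higher (6.65% of all genes) and 1 was lower (8.93% of all genes), and DESeq2 and limma called 3 and 14 members, against 4.91% and 26.5% of all genes to which each tool gave an adjusted p. The median over the members was 0.20, against 0.02 over all genes. The lower member was Adamts4, at 4.09, 2.61 and 3.11 CPM in water and 1.40, 0.587 and 1.31 with DSS, with no overlap and a value of -1.56 ± 0.41 (SE, edgeR adjusted p = 0.105). It was the 1 member lower without overlap in LAO1KO, where 10.1% of all genes were. The largest positive values were those of Dcn (0.88), which binds collagen fibrils, Fbln2 (0.76), a fibulin of elastic fibres, and Col14a1 (0.74). For these 3 genes the highest DSS libraries were A and C, where the 8 adipocyte markers summed to 1793 and 1453 CPM, against 154 in DSS library B and 42.8 to 802 in the water libraries. The part of adipose tissue in these values was not tested. The 20 fibroblast markers, Dcn among them, had 17 positive and 3 negative values and a median of 0.44, with 0 passing. Their part was not tested either. Col6a3 was at 72.6, 58.7 and 37.2 CPM in water and 48.5, 46.6 and 57.6 with DSS, Mmp2 at 28.6, 20.9 and 19.9 and at 19.6, 17.4 and 22.6, and Pdgfra at 55.4, 36.8 and 33.3 and at 31.9, 21.6 and 36.5. Water and DSS libraries overlapped for all 3.

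In DKO mice no member passed by edgeR, where 0.0159% of all genes did. At an unadjusted p under 0.05, 3 members were higher (4.14% of all genes) and 0 lower (5.44% of all genes), and DESeq2 and limma called 2 members each (1.67% and 2.54% of all genes). The median over the members was 0.22, against 0.02 over all genes, and 28 of 36 values were positive. Adamts4 was at 4.08, 3.54 and 3.46 CPM in water and 4.85, 1.72 and 1.66 with DSS, where library A lay above all water libraries and B and C below them, and its value was -0.43, or -1.13 without library A. Col6a3 was at 35.7, 65.7 and 49.2 CPM in water and 42.6, 50.2 and 45.7 with DSS. Mmp2 was at 19.1, 25.2 and 13.9 CPM in water and 23.7, 20.0 and 18.2 with DSS. Pdgfra was at 37.2, 41.9 and 29.7 CPM in water and 43.0, 39.7 and 36.9 with DSS. For the last 3 genes DSS and water libraries overlapped. The largest values were those of Igfbp5 (0.96), Lum (0.91), the keratan sulfate proteoglycan lumican, Dcn (0.87) and Fbln1 (0.73), a fibulin. Lum and Fbln1 were higher in every DSS library than in every water library, 2 of the 4 such members, where 8.39% of all genes did so. The 20 fibroblast markers, which include Lum, Dcn and Fbln1, had 17 positive and 3 negative values. Their median was 0.54 with 0 passing, and their part in the result was not tested.

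Averaged over the 3 genotypes, DSS against water gave 2 members higher and 7 lower past the threshold, where 15.9% of all genes passed, 6.72% higher and 9.18% lower. The median of the 36 log2 fold changes was -0.09, against 0.03 over all genes tested. The 7 lower genes were all among the 16 lower in WT, whose libraries enter both values. Adamts4 fell by 1.47 ± 0.23 (SE, edgeR adjusted p = 9.39e-04), Col6a3 by 0.57 ± 0.16 (0.0218), Lamb1 by 0.45 ± 0.13 (0.0272) and Col15a1 by 0.54 ± 0.16 (0.0312). Eln fell by 0.52 ± 0.16 (0.0383), Pdgfra by 0.52 ± 0.16 (0.0415) and Mmp2 by 0.46 ± 0.15 (0.0434). In DKO the group means of Pdgfra (36.2 CPM in water and 39.9 with DSS) and Mmp2 (19.4 and 20.6) were not lower with DSS. Those of the other lower genes were. The 2 genes that rose were Igfbp4, by 0.58 ± 0.09 (edgeR adjusted p = 8.2e-04), and Igfbp5, by 0.41 ± 0.10 (edgeR adjusted p = 0.0125). Thy1 (0.64), Dcn (0.61), Col5a1 (-0.54) and Col1a1 (-0.43) had the largest values among those that did not pass. The count of 9 became 4 without DKO water library B, 4 without DKO DSS library C and 5 without DKO DSS library B. Adamts4, Col6a3, Igfbp4 and Igfbp5 passed in all 18 fits that leave out 1 library, whereas Lamb1 passed in 14, Col15a1 in 12, Eln and Pdgfra in 8 each and Mmp2 in 7. Without the filter on low counts Eln, Pdgfra and Mmp2 did not pass, and with the length offset alone Pdgfra did not. With the replicate letter as a block Eln did not pass (-0.52, edgeR adjusted p = 0.0516) and Col5a1 did (-0.51, edgeR adjusted p = 0.0416), and with the block and the length offset together Eln, Col15a1, Lamb1 and Pdgfra did not (edgeR adjusted p from 0.0591 to 0.0652). In the same comparison 6 of 7 enteric neuron markers, 3 of 5 enteric glia markers and 3 of 6 goblet markers were higher past the threshold, with 0 lower on each list. In WT alone, 2 of the 6 goblet markers were lower past the threshold and 0 higher. Of the 9 subepithelial telocyte markers 3 were lower, and of the 10 epithelial markers 2, with 0 higher. Of the 20 fibroblast markers 1 was higher and 1, the member Pdgfra, was lower. Their values were positive for 16 and negative for 4, with a median of 0.33. Of the 3 markers of interstitial cells of Cajal 1 was higher, with 0 lower. Their part in the result was not tested.

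Igfbp4 and Igfbp5, which bind insulin-like growth factors outside the cell and are secreted by mesenchymal cells, were the 2 members that rose over the genotypes, though Igfbp5 was lower with DSS in WT. Igfbp4 was at 42.2, 43.6 and 48.3 CPM in WT water and 44.5, 61.7 and 65.9 in WT DSS, at 45.6, 40.2 and 38.7 in LAO1KO water and 74.6, 58.2 and 65.2 in LAO1KO DSS, and at 34.7, 45.4 and 33.4 in DKO water and 54.1, 70.4 and 61.3 in DKO DSS. DSS libraries were above water libraries without overlap in both knockouts, where 9.3% of all genes in LAO1KO and 8.39% in DKO were. WT DSS library A overlapped the WT water libraries. By genotype the log2 fold changes were 0.36 in WT, 0.67 in LAO1KO and 0.71 in DKO (edgeR adjusted p = 0.137, 0.0798 and 0.130). Igfbp5 was at 46.9, 48.3 and 47.3 CPM in WT water and 33.1, 42.1 and 32.7 in WT DSS, so that all WT DSS libraries were lower. In LAO1KO it was at 24.9, 28.1 and 26.9 CPM in water and 48.3, 29.7 and 49.5 with DSS, and in DKO at 29.3, 26.3 and 25.8 in water and 64.9, 50.1 and 42.8 with DSS, so that all DSS libraries of both knockouts were higher. Its log2 fold changes were -0.40 in WT, 0.67 in LAO1KO and 0.96 in DKO (edgeR adjusted p = 0.136, 0.103 and 0.0777). The difference between the DKO and WT responses was 1.36 ± 0.25 (SE, edgeR adjusted p = 0.0515), and that between the LAO1KO and WT responses was 1.07 ± 0.25 (edgeR adjusted p = 0.130), and neither passed. The DKO difference passed in 8 of 9 other settings, with adjusted p from 1.72e-04 with DESeq2 to 0.0464, all but the length offset alone (edgeR adjusted p = 0.0742), and in 2 of 12 fits that leave out a library. The LAO1KO difference passed in 2 of 9 other settings, DESeq2 and limma, and in 0 of 12 such fits.

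**Figure D3:**
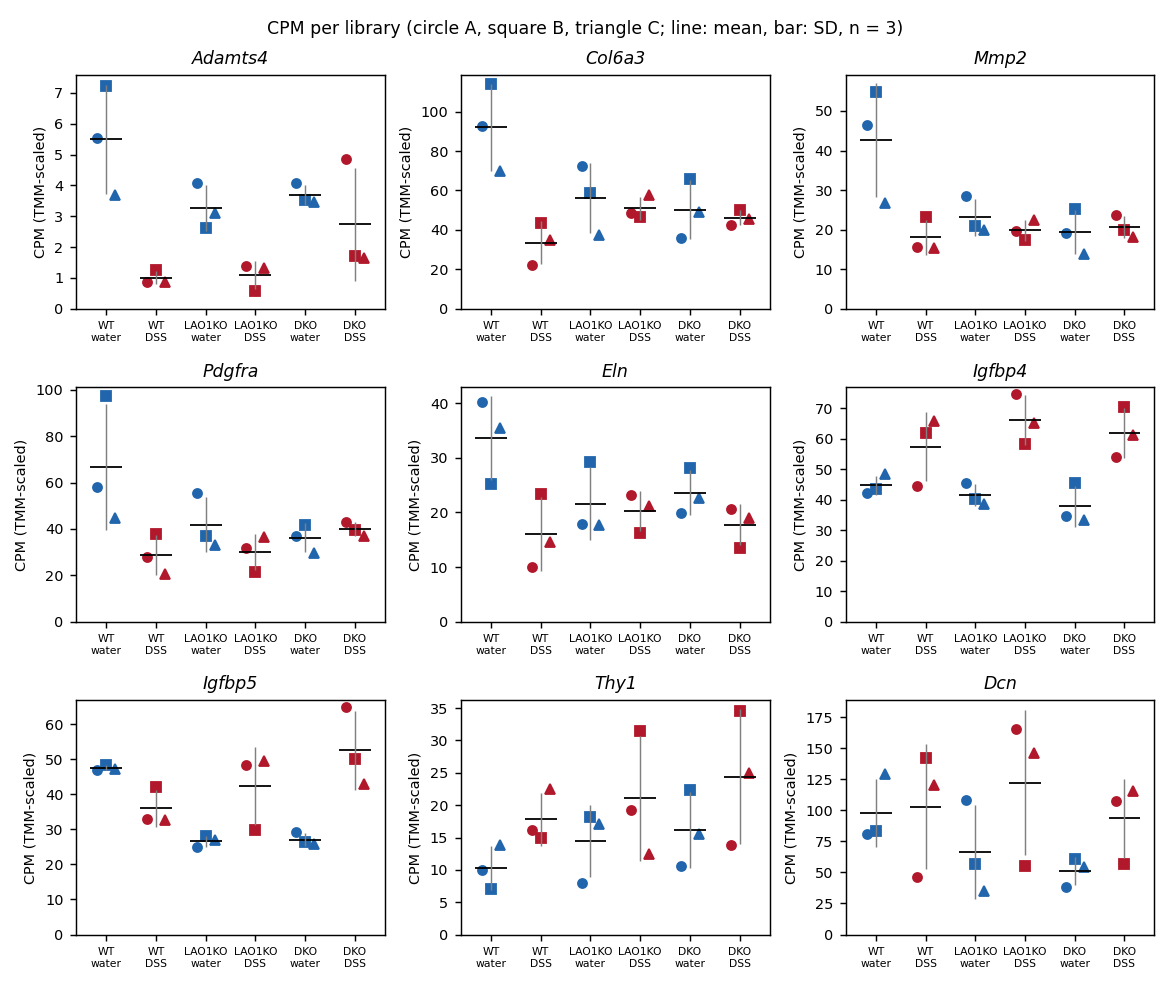
Each panel plots the TMM-scaled CPM of 1 gene in the 18 libraries, blue for water and red for DSS, with circles, squares and triangles for replicates A, B and C and the group mean with its SD. Adamts4 falls from 3.70 to 7.24 CPM in WT water to 0.882 to 1.25 with DSS, Igfbp5 is between 46.9 and 48.3 CPM in WT water and between 24.9 and 29.3 CPM in both knockouts on water, and Dcn spreads widely within groups.

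Without DSS, Igfbp5 was the 1 member that differed between a knockout and WT by edgeR. It was lower in DKO, with a log2 fold change of -0.81 ± 0.18 (SE, n = 3 per group, edgeR adjusted p = 0.0452), where 0.621% of all genes passed and 0.249% were lower. The call held without WT water library C and was lost without any 1 of the other 5 libraries of the comparison, with the value between -0.87 and -0.77. The median over the members was -0.73, against 0.01 over all genes, and 35 of 36 values were negative, Thy1 (0.65) being the exception. At an unadjusted p under 0.05, 18 members were lower, where 8.58% of all genes were, and DKO libraries lay wholly below WT libraries for 13, where 9.86% of all genes did. DESeq2 and limma called 13 and 2 members (4.92% and 1.13% of all genes). Col3a1 (-1.21), Mmp2 (-1.13, edgeR adjusted p = 0.0517), Lum (-1.10) and Col6a2 (-1.08) had the largest values among those that did not pass. The count was 5 without WT water library C, 3 without DKO water library B and 0 without any 1 of the other 4. In the same groups the 10 smooth muscle markers summed to 5575 to 8946 CPM in WT and 2243 to 5292 in DKO, the 20 fibroblast markers to 778 to 940 and 438 to 587, and the 8 adipocyte markers to 59.4 to 590.1 and 50.8 to 128, with 4 adipocyte markers at 0 in at least 1 DKO water library. The 9 subepithelial telocyte markers summed to 120 to 166 CPM in WT and 83.3 to 116 in DKO, and the 6 goblet markers to 9823 to 12277 and 6758 to 7856, all 6 negative with 0 passing. Mitochondrial mRNA took 6.89% to 9.08% of counts in WT water and 10.5% to 20.7% in DKO water, without overlap. Their part in the result was not tested.

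In LAO1KO against WT on water no member passed by edgeR, where 0.0531% of all genes did, and DESeq2 and limma called 4 and 11 (1.92% and 4.95% of all genes). At an unadjusted p under 0.05, 18 members were lower, where 7.34% of all genes were, and the median was -0.55, against 0.01 over all genes. Col6a2 (-1.08), Col6a1 (-0.998), Col3a1 (-0.88) and Mmp2 (-0.88) had the largest values, and Igfbp5 had -0.83 (edgeR adjusted p = 0.121). The edgeR count was 3 without WT water library C. The subepithelial telocyte markers were at 97.7 to 110 CPM in LAO1KO water, also below all WT water libraries, and their part was not tested. Both knockouts were set against the same 3 WT water libraries, of which library B held the highest value of 19 members. Over 17228 genes, log2 fold changes fell with transcript length in LAO1KO against WT on water (Spearman rho = -0.296, across genes). In DKO against WT on water rho was -0.071. The part of length in the medians was not tested.

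With DSS, no member passed between either knockout and WT. LAO1KO against WT gave 0 members by edgeR (0.0849% of all genes), 4 higher at an unadjusted p under 0.05 (3.17% of all genes), 0 by DESeq2 and 1 by limma (0.292% and 5.13% of all genes), with a median of 0.24, against -0.01 over all genes. The largest values were 0.76 for Fbln2, 0.61 for Col14a1, 0.60 for Col6a3 and 0.58 for Col4a2. DKO against WT gave 0 members by edgeR (0.255% of all genes), 2 higher at an unadjusted p under 0.05 (4.61% of all genes) and 0 by DESeq2 and by limma (0.791% and 2.44% of all genes), with a median of 0.24, against 0.0029 over all genes. The 2 genes were Adamts4 (1.44, edgeR adjusted p = 0.285) and Igfbp5 (0.55, edgeR adjusted p = 0.346), each higher in every DKO DSS library than in every WT DSS library, as was Col18a1, where 9.83% of all genes were so. The Adamts4 value was 0.74 without DKO DSS library A. With DSS, log2 fold changes against WT rose with transcript length over 17228 genes (Spearman rho = 0.221 for LAO1KO and 0.311 for DKO, across genes). The part of length in these medians was not tested. DKO against LAO1KO, averaged over water and DSS, gave 0 members by edgeR (0.239% of all genes), DESeq2 (0.557%) and limma (1.87%), and 1 higher in DKO at an unadjusted p under 0.05 (4.02% of all genes), Adamts4 (0.74, or 0.39 without DKO DSS library A).

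**Figure D4:**
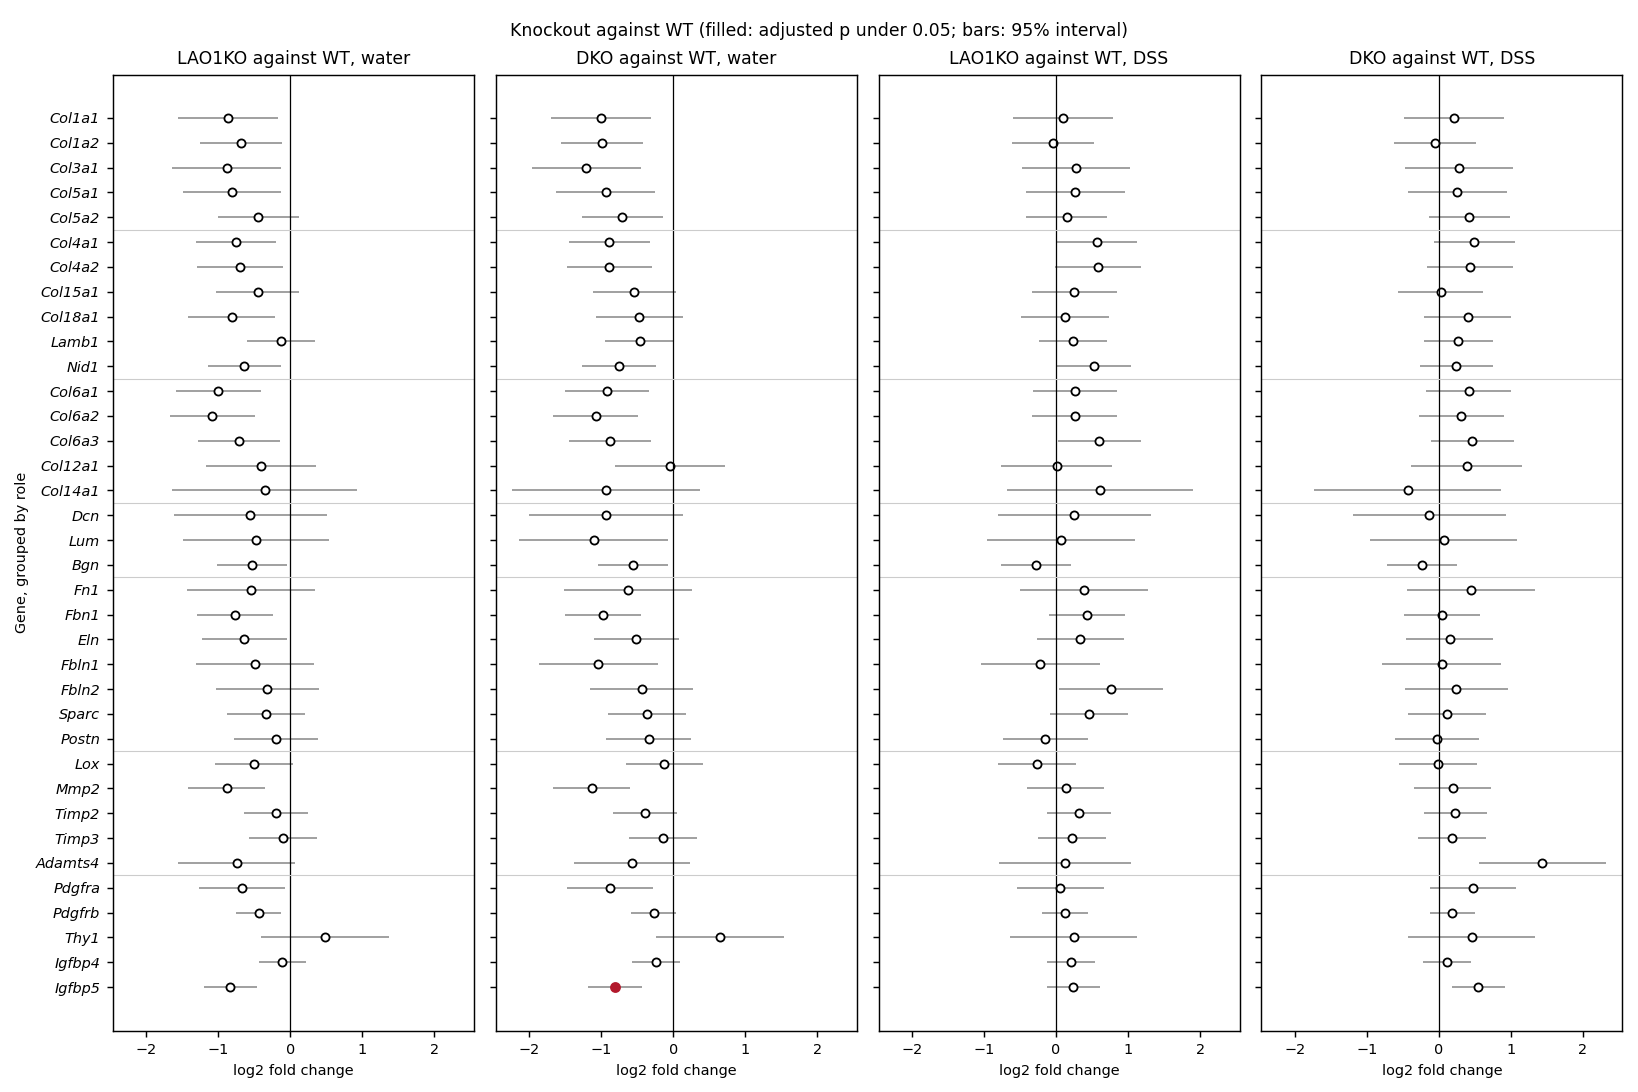
The 4 panels give the log2 fold change of each knockout against WT under water or DSS for the 36 genes, with 95% intervals, filled where the edgeR adjusted p was under 0.05. Under water 35 of 36 points lie left of zero in each knockout and only Igfbp5 in DKO is filled, and under DSS most points lie right of zero with none filled.

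The difference between the DSS responses was tested directly. The LAO1KO response minus the WT response was positive for 35 of 36 members with a median of 0.84, against -0.01 over all genes, and 0 members passed by edgeR (0% of all genes). At an unadjusted p under 0.05, 16 members were higher, where 7.45% of all genes were, and DESeq2 and limma called 8 and 18 (2.84% and 12.3% of all genes). The largest differences were those of Col6a2 (1.34), Col4a1 (1.32), Col6a3 (1.31) and Col4a2 (1.28), with edgeR adjusted p of 0.151, 0.146, 0.151 and 0.162. The DKO response minus the WT response was positive for 35 of 36 members with a median of 0.96, against 0.0024 over all genes, and 0 passed by edgeR (0.0584% of all genes). Here 19 members were higher at an unadjusted p under 0.05, where 7.46% of all genes were, and DESeq2 and limma called 9 and 1 (3.32% and 1.25% of all genes). The edgeR count was 3 without WT water library C and 1 without WT DSS library B. Adamts4 (2.01), Col3a1 (1.49), Col6a2 (1.39) and Col4a1 (1.38) had the largest differences, with edgeR adjusted p of 0.134, 0.200, 0.137 and 0.126. The Adamts4 difference was 1.31 without DKO DSS library A. Over 17228 genes both differences rose with transcript length (Spearman rho = 0.316 for LAO1KO and 0.247 for DKO, across genes). The part of length in these medians was not tested. Both differences contain the same 6 WT libraries, and Thy1 was the exception in both. A response past the threshold in WT and not in a knockout is therefore not shown to differ between them by edgeR for any member.

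Ratios of read counts of 2 members within a library do not depend on scaling, and the pairs below were chosen after the values were seen. Among chains that assemble into 1 molecule, Col4a1 to Col4a2 ran from 1.28 to 1.64 over the 18 libraries with a median of 1.38, and Col6a1 to Col6a2 from 1.12 to 1.52 with a median of 1.27. Other such chains had wider ratios: Col6a3 to Col6a1 ran from 0.508 in WT DSS library A to 1.18 in LAO1KO water library A, and Col1a1 to Col1a2 from 0.457 to 0.877. Pdgfra to Pdgfrb was 2.65 ± 0.68 (SD, n = 3) in WT water and 1.45 ± 0.38 in WT DSS, without overlap, 2.33 ± 0.75 and 1.38 ± 0.15 in LAO1KO, also without overlap, and 1.77 ± 0.16 and 1.79 ± 0.17 in DKO, where the groups overlapped. Mmp2 to Timp2 was 0.595 ± 0.235 in WT water and 0.271 ± 0.088 in WT DSS, with 1 DSS library above the lowest water library, 0.358 ± 0.065 and 0.227 ± 0.043 in LAO1KO, without overlap, and 0.353 ± 0.103 and 0.262 ± 0.094 in DKO, with overlap. With 3 libraries per group an exact permutation test of such a ratio cannot give a two-sided p below 0.1, and none was run.

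**Figure D5:**
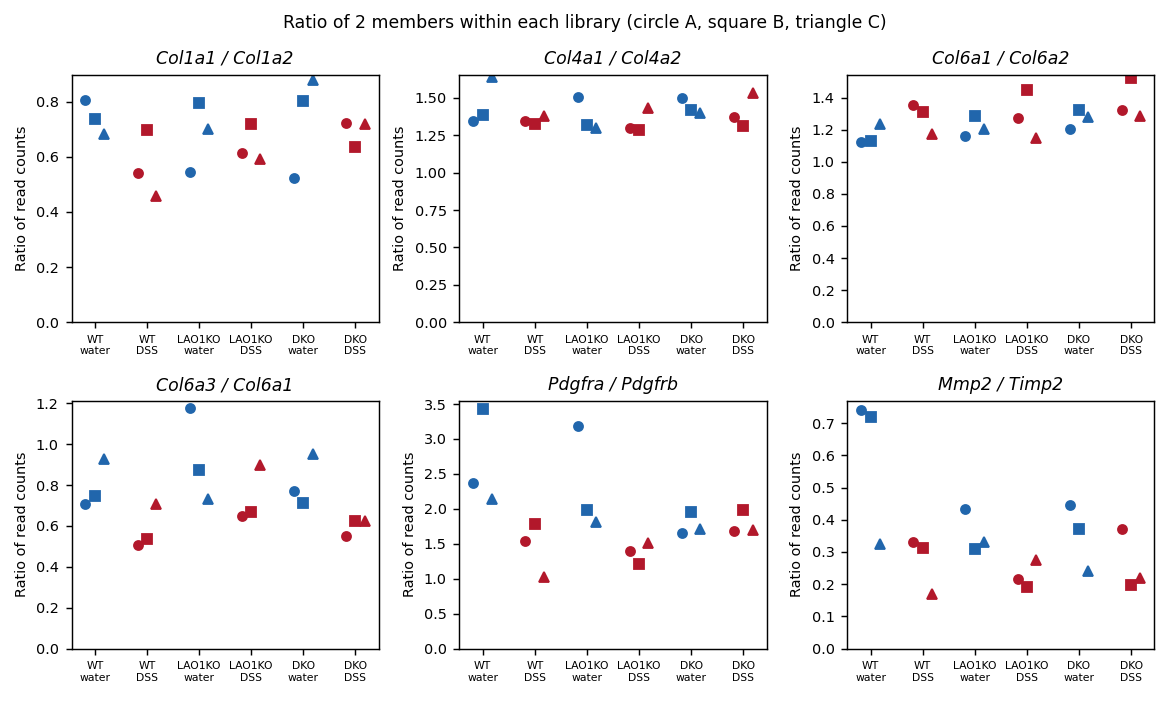
Each panel plots the ratio of the read counts of 2 genes in each library, blue for water and red for DSS, by group. Col4a1 to Col4a2 stays between 1.28 and 1.64, while Pdgfra to Pdgfrb is lower with DSS in WT and LAO1KO and level in DKO.

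Other genes of the matrix pathways were read from the same fit. In WT, 20 of 179 tested genes on 8 lists were lower with DSS past the threshold and 2 were higher, which is 11.2% and 1.12%, where 6.59% and 6.29% of all genes were. The median was -0.26, against 0.02 over all genes. The counts for the basement membrane, glycoprotein and protease lists below are near the share of all genes and say nothing about those lists. Of 26 collagen biosynthesis genes 5 fell and 0 rose, among them the prolyl hydroxylases P4ha1 (-0.84) and P4ha2 (-0.84), the collagen chaperone Serpinh1 (-1.08) and the crosslinking oxidase Loxl2 (-1.21). Of 18 other collagens tested 3 fell and 0 rose: Col4a6 (-1.89), Col6a4 (-1.55) and Col4a5 (-1.39). Lamc1 (-1.01), a laminin chain, was the 1 of 15 other basement membrane genes that fell, with 0 higher. Of 31 other glycoproteins tested Thbs1 (-0.98), a thrombospondin, and Fbn2 (-1.25), a fibrillin, fell. Of 32 proteases and inhibitors tested Adamts9 (-1.44) and Mmp19 (-1.42) fell and Fap (1.16), a fibroblast surface protease, rose. Of 25 TGF-beta and PDGF genes the receptors Tgfbr2 (-0.78) and Acvr1 (-0.62) and the target Pmepa1 (-0.58) fell and the ligand Pdgfa (0.45) rose. Of 24 matrix receptors tested Dag1 (-0.72), the dystroglycan, the syndecan Sdc1 (-0.61) and the integrin chain Itgb3 (-0.90) fell. Of 8 other IGF system genes Igfbp3 (-0.75) fell.

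Averaged over genotypes, 18 of the 179 genes were lower and 7 higher past the threshold, which is 10.1% and 3.91%, where 9.18% and 6.72% of all genes were. The median was 0.02, against 0.03 over all genes. The lower share is near that of all genes, so the genes named next describe single genes and not the lists. Collagen biosynthesis gave 5 lower, with P4ha1 (-0.61), Adamts14 (-0.99), which trims procollagen, and P4hb (-0.26) among them, and 1 higher, Loxl3 (0.40). Col6a4 (-1.31), Col4a6 (-1.08) and Col4a5 (-0.72) were the 3 other collagens that fell, with 0 higher. Smoc2 (0.37) of the basement membrane genes and Ltbp1 (0.28), which holds latent TGF-beta in the matrix, were the 1 higher on each of those lists, with 0 lower. Among proteases and inhibitors Serpine2 (0.49), Reck (0.63) and Mmp11 (0.59) rose and the collagenase Mmp13 (-1.07) fell. Smad2 (-0.29), Tgfbr2 (-0.35), Pdgfc (-0.42) and Pmepa1 (-0.38) were the 4 TGF-beta and PDGF genes that fell, and Sdc1 (-0.48), Dag1 (-0.43), Itga6 (-0.24) and Itgb3 (-0.44) the 4 matrix receptors, with 0 higher on both. Of the IGF genes the ligand Igf2 (0.44) rose and Igfbp3 (-0.67) fell. In LAO1KO, in DKO and in DKO against WT on water, 0 of the 179 passed by edgeR, and at an unadjusted p under 0.05 the higher and lower genes numbered 20 and 10, 25 and 9, and 2 and 54. Over all genes the higher and lower shares were 6.65% and 8.93% in LAO1KO, 4.14% and 5.44% in DKO, and 8.73% and 8.58% in DKO against WT on water. The other tools were not read for these lists.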

How the data were processed

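Total RNA of mouse colon was sequenced as stranded mRNA libraries in 18 samples, and the deposited table holds the authors' raw read counts per gene symbol, as whole numbers. The submitters' processing notes name Trimmomatic 0.38, HISAT2 2.1.0, StringTie 2.1.3b and the builds GRCm38 and mm10. How strand, overlapping genes and multiply mapped reads were counted is not given in the sources used here.

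The members and lists were chosen with earlier results of these data known. All genes were filtered with filterByExpr and fitted in edgeR 4.0.16 (R 4.3.3; TMM factors, robust quasi-likelihood) with 1 mean for each of 6 groups of 3, and p-values were adjusted over 18848 genes at a threshold of 0.05. CPM values use the TMM factors. All 36 members may be named; full statistics go to up to 10 per comparison that passed and values to up to 4 others with the largest change, and libraries are printed for 12 members that passed and the 4 highest per length. Of other lists, up to 4 genes per comparison that passed are named. Positions and lengths, those of the longest transcript of each gene, come from GENCODE M21. Alternatives were DESeq2 1.42.0, limma 3.58.1 with library weights, RLE factors, other filters, a replicate block, a length offset, fits of only the groups compared and leaving out each library. The scripts were tested on simulated data.

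Same-lettered samples of 2 groups were checked for shared deviations from the group means. In WT water and WT DSS all 3 correlations were over 0.1 (0.193, 0.165 and 0.217), so the letters may mark pairs there, from the data and not from the labels. In the other 14 of 15 pairs of groups not all 3 were over 0.1. As 13 of all 45 such correlations were over 0.1, the WT values do not show that the samples were paired. No 2 libraries held the same values (highest Pearson correlation 0.984). The labels do not say that the replicates shared no litter or cage. The p-values use the spread between samples within groups, estimated over all 6 groups together.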

Additional observations from a re-analysis of the deposited data

How the results depend on the processing

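The 43 values followed were those of members past the threshold in the main fit and others picked by hand. Of their 779 refitted values 600 stayed on the same side of the threshold, 128 lost it and 51 gained it. None changed sign, which says little because values past the threshold rarely do, and nothing about members not followed. Leaving out 1 library at a time, the number of members past the threshold ran from 4 to 12 for DSS averaged over genotypes, 3 to 17 for DSS in WT, 0 to 3 for LAO1KO against WT on water, 0 to 5 for DKO against WT on water and 0 to 3 for the DKO response against that of WT, with no change beyond 1.5 times in the other comparisons. With only the groups compared in the fit the count was 4 for DSS in WT, 1 for DSS in DKO and 1 for the DKO response against that of WT. DESeq2 called 3 members for DSS in LAO1KO, 2 for DSS in DKO, 4 for LAO1KO and 13 for DKO against WT on water, 8 for the LAO1KO response and 9 for the DKO response against that of WT. Limma called 14, 2, 11, 2, 18 and 1 in the same order, and 1 for LAO1KO against WT with DSS. Without the filter on low counts there was 1 for DSS in DKO and 1 for the DKO response, with RLE factors 1 for the DKO response, and with mitochondrial mRNA and ribosomal RNA left out 2 for DKO against WT on water and 1 for the DKO response. The length offset gave 2 for DKO against WT on water. The cause of these shifts was not tested. Fits that drop libraries also hold fewer samples, and the part of that was not tested either.

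The main fit held no term for the replicate letter. The block gave each letter 1 effect shared by all 18 libraries, knockouts included, so it is not a paired test of WT alone. With the replicate letter as a block, 17 members passed for DSS in WT, Col18a1 being added, and 12 with the length offset too. The block changed no other WT call. For DSS averaged over genotypes the block ended the call of Eln and added Col5a1. In the other comparisons the letters were taken as shared names only. With the block 3 members passed for DKO against WT on water (3 with the length offset too) and 1 for the DKO response against that of WT (1 with the offset). Over 45 same-letter correlations 13 were over 0.1, from -0.299 to 0.319. The lowest member count of 15 limits Adamts4 in single libraries. Intervals use a spread within groups that was estimated over all 18 libraries and shared by the 6 groups, not the spread of the compared groups alone.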
